A study of Mus musculus with 8 samples.

Results

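The growth factors described here are 10 secreted signalling proteins with known roles in blood vessel growth and tissue repair: Vegfa, Vegfb, Vegfc, Hbegf, Pdgfa, Pdgfb, Edn1, Bmp2, Tgfb1 and Igf1. They were chosen by name, with earlier results of these data known, so their counts of calls are a description. A probe belonged to the set where the array file gave it the name of a member and it was not a control spot. This gave 19 probes for the 10 genes, among 27343 gene names on the array, and all 10 genes had a probe that passed the filter on dim probes.

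RNA came from RAW264.7 cells, an established mouse macrophage-like line, and was read on 8 Agilent 1-colour arrays. Cells received interleukin-13 (IL-13, a type 2 cytokine) together with all-trans retinoic acid (ATRA, the active form of vitamin A), IL-13 alone, ATRA alone, or neither. Each treatment had 1 array at 12 h and 1 array at 24 h, so each treatment had 2 arrays. The labels describe the cells given IL-13 with ATRA as M2 macrophages with polarization suppressed, those given IL-13 as M2 macrophages, and the ATRA and control cells as unpolarized. All groups were the same line in the same serum-containing medium, and the labels give no doses. Whether the 8 arrays came from separate cultures is not stated, and the p-values therefore describe the spread among the arrays alone. With 1 array per treatment and time, that spread is how far treatment differences disagree between 12 h and 24 h, pooled over the treatments. A treatment effect that changes with time is counted in it, so standard errors and p-values do not measure the spread of replicates at one time. The 12 h arrays shared 1 slide and the 24 h arrays another. Time and slide thus cannot be told apart, whereas each 12 h or 24 h treatment difference lies within a slide.

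Macrophages release growth factors that act on the cells around them. VEGF family ligands drive the growth of blood and lymphatic vessels, PDGF ligands attract and expand fibroblasts and pericytes, Hbegf acts through the EGF receptor, and Igf1 supports muscle and epithelial repair. Edn1 constricts vessels, while Tgfb1 and Bmp2 are members of the TGF-beta superfamily that act through SMAD proteins. IL-13 signals through STAT6, and ATRA through retinoic acid receptors bound to DNA.

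Scaled signals are Agilent processed intensities, brought to a common 75th percentile. That percentile ran from 448.8 to 743.4 intensity units before scaling, between 54.1% and 61.4% of probes were well above background, and 0 probes per array were saturated. Of 11 macrophage markers, 10 were well above background on both arrays of every treatment. Their summed scaled signal ran from 348133 to 393986 with IL-13 and ATRA, 371678 to 483921 with IL-13, 421480 to 442065 with ATRA, and 451566 to 474508 in control cells. Of 7 endothelial markers, 1 was detected with IL-13 and ATRA, 1 with IL-13, 1 with ATRA and 2 in control cells, and summed signals were at most 94.7. Of 7 fibroblast markers 1 was detected in every treatment, and of 4 epithelial markers 0 were. The part of these sums in the results was not tested.

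Of the 10 growth factors, 7 changed in at least 1 treatment comparison and 3 (Vegfb, Pdgfb and Tgfb1) passed no test, where 9.52% of all genes tested were called in at least 1 of the same 5 comparisons. A call here means an adjusted p under 0.05 in limma's moderated test over 15439 genes with Benjamini-Hochberg adjustment. With IL-13, 5 were higher than in control cells (Vegfc, Hbegf, Pdgfa, Edn1, Igf1) and 0 were lower, where 0.693% of all genes tested were called higher and 0.622% lower. With ATRA, 2 were higher than in control cells (Vegfa, Bmp2) and 0 were lower, against 0.894% and 0.959% of all genes. With IL-13 and ATRA together, 6 were higher than in control cells (Vegfa, Hbegf, Pdgfa, Edn1, Bmp2, Igf1) and 0 were lower, against 3.01% and 5.54% of all genes. Edn1 and Bmp2 passed the filter only through treatments in which they are high, so they had to differ, and their calls support nothing. Among the calls with some signal well above background in the lower group there were 4 of the 5 for IL-13, 1 of the 2 for ATRA and 4 of the 6 for both agents. Hbegf is among those for IL-13 and for both agents. It passed the filter only through the treatments other than control, where it is higher, so its calls against control carry the same limit. Normexp, another background correction that adds 50 to every signal and so compresses differences of dim probes, was run as an alternative, and its values are given for the dim genes.

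**Figure D1:**
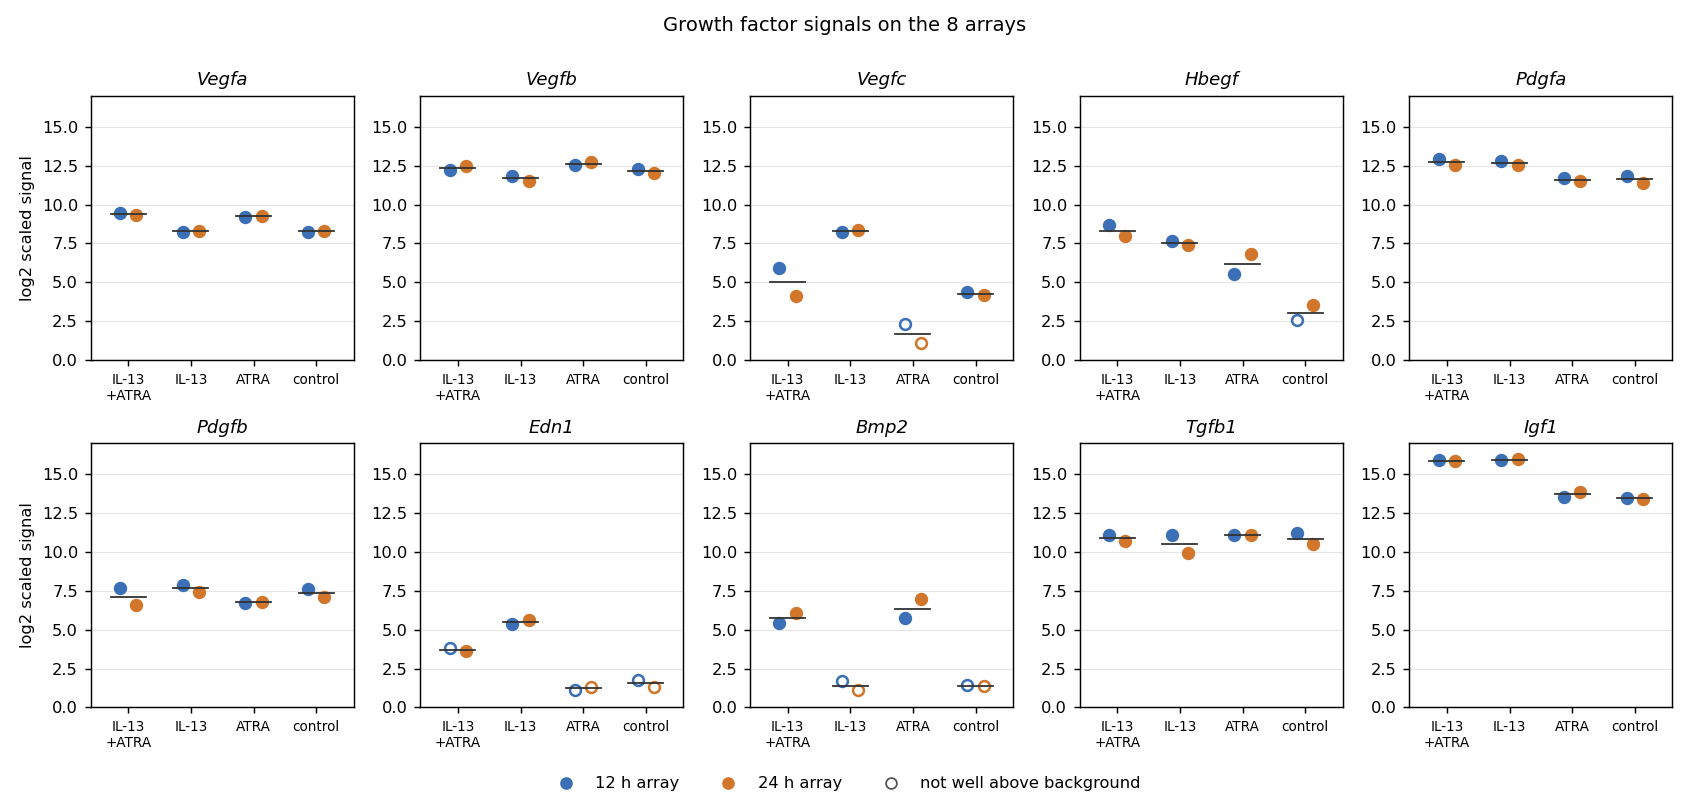
Scaled signal (log2) of each growth factor on the 8 arrays, by treatment, with the 12 h array in blue and the 24 h array in orange; bars are means of 2 arrays and open points were not well above background. Igf1 and Pdgfa sit higher on both treatments with IL-13, Vegfa and Bmp2 on both treatments with ATRA, and Vegfc and Edn1 highest with IL-13 alone.

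Vegfa is the main ligand of blood vessel growth. Its brightest probe gave scaled signals of 691 at 12 h and 657.5 at 24 h with IL-13 and ATRA, 306 and 312 with IL-13, 583 and 628 with ATRA, and 307 and 312 in control cells. On this probe all 4 arrays with ATRA lay above all 4 arrays without it, and IL-13 and control arrays overlapped. On the log2 scale the difference from control was 1.12 ± 0.11 (SE, 2 arrays each) with both agents and 0.97 ± 0.11 with ATRA, with limma adjusted p of 0.00866 and 0.0288. With IL-13 it was -0.00 ± 0.11 (adjusted p = 0.987). IL-13 with ATRA exceeded IL-13 by 1.13 ± 0.11 (adjusted p = 0.0174), and exceeded ATRA by 0.16 ± 0.11 (adjusted p = 0.562). In a bulk sample, fewer expressing cells and less RNA per cell cannot be told apart, here and for every gene below.

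Vegfa had 3 other probes. Their ATRA differences from control were 1.11, 1.03 and 0.56 on the log2 scale, all positive, but with adjusted p of 0.0597, 0.0813 and 0.335 when every probe was tested, so the ATRA call rested on the brightest probe. All 4 probes were called for IL-13 with ATRA against control. For IL-13 with ATRA against IL-13, the other probes gave 1.11, 0.99 and 0.81, with adjusted p of 0.0525, 0.0802 and 0.151. The dimmest, A_52_P229471, was well above background on 5 of 8 arrays. On it the 24 h IL-13 array (10.8) lay above the 12 h ATRA array (9.16). For IL-13 against control the 3 other probes gave 0.35, 0.50 and 0.31, with adjusted p from 0.208 to 0.408. Both IL-13 arrays lay above both control arrays on A_51_P482552 and A_52_P249424, unlike on the brightest probe.

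**Figure D2:**
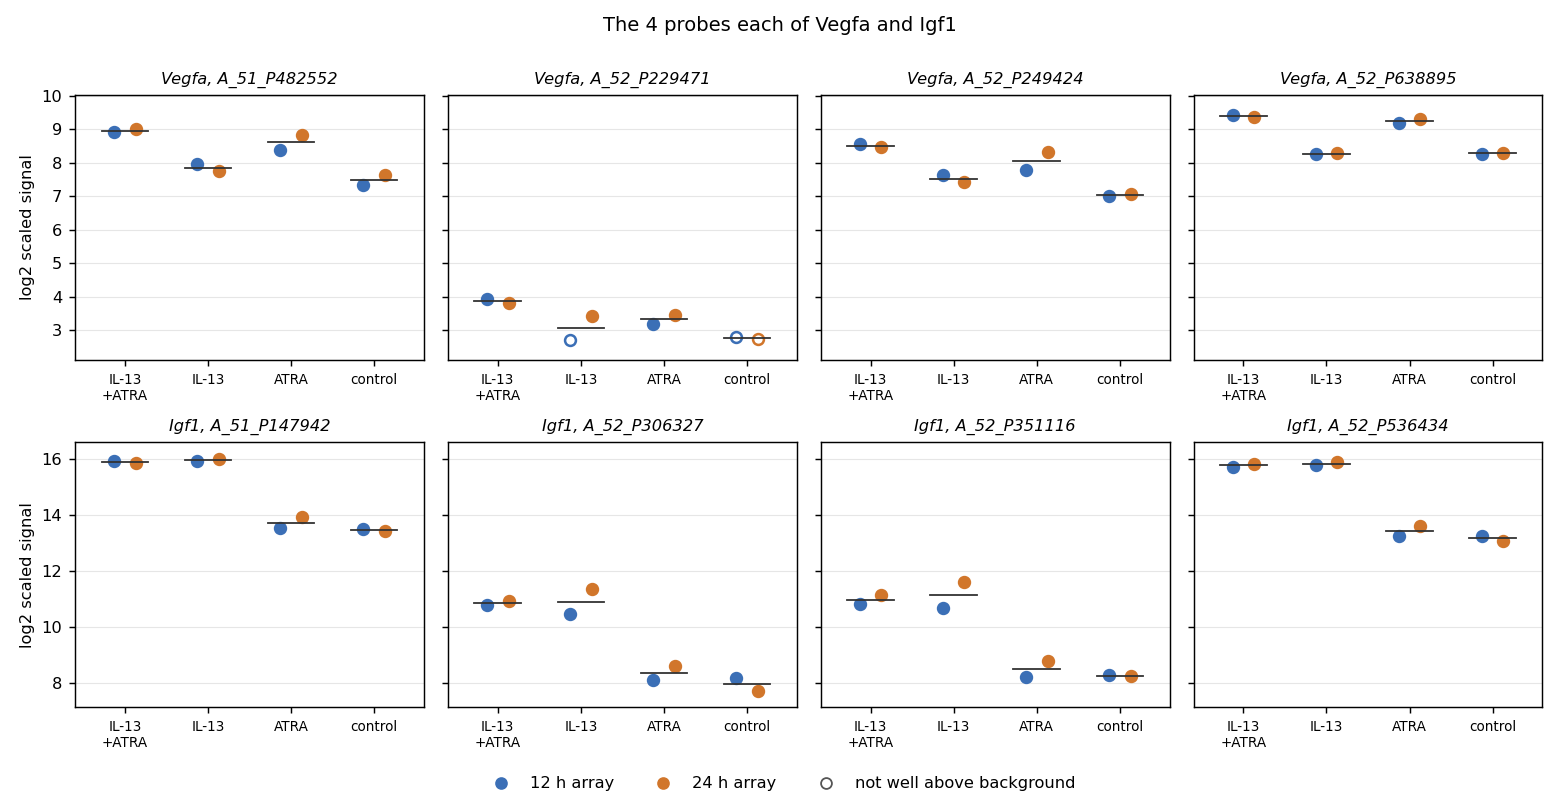
Scaled signal (log2) of the 4 probes of Vegfa (top) and the 4 probes of Igf1 (bottom) on the 8 arrays, by treatment, 12 h in blue and 24 h in orange; bars are means of 2 arrays, open points were not well above background, and each row shares 1 axis. The 4 Igf1 probes all sit higher on both treatments with IL-13, and the Vegfa probe A_52_P229471 lies close to background.

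Vegfb, a VEGF receptor 1 ligand that is less active in vessel growth, was bright on every array. Scaled signals were 4753 and 5660.1 with IL-13 and ATRA, 3692 and 2949.9 with IL-13, 5961 and 6790.1 with ATRA, and 5120 and 4167 in control cells at 12 h and 24 h. On this probe the 2 IL-13 arrays were the lowest and the 2 ATRA arrays the highest. On a second Vegfb probe the 2 IL-13 arrays were again the lowest, but the 24 h array with both agents (1807) lay above the 12 h ATRA array (1621). The differences from control were 0.17 ± 0.19 with both agents, -0.48 ± 0.19 with IL-13 and 0.46 ± 0.19 with ATRA, with limma adjusted p of 0.607, 0.206 and 0.348. None of them passed the test, nor did IL-13 with ATRA against IL-13 (0.65 ± 0.19, adjusted p = 0.163). The second probe gave 0.29, -0.48 and 0.51 against control and 0.76 against IL-13, none called.

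Vegfc, the ligand of lymphatic vessel growth, was highest with IL-13 alone. Scaled signals were 59.8 and 17.3 with IL-13 and ATRA, 307 and 336 with IL-13, 5.00 and 2.10 with ATRA, and 20.8 and 17.7 in control cells. Both ATRA values were not well above background, and the arrays with both agents straddled those of control cells. IL-13 raised Vegfc by 4.06 ± 0.48 on the log2 scale over control (limma adjusted p = 0.0352). With IL-13 and ATRA it was lower than with IL-13 by a log2 difference of -3.32 ± 0.48 (adjusted p = 0.0376), which was -2.36 at 12 h and -4.28 at 24 h. With both agents it differed from control by 0.75 ± 0.48 (adjusted p = 0.359), with 1.52 at 12 h and -0.03 at 24 h. With ATRA alone it was at least 2.18-fold lower than in control cells, which missed the threshold (adjusted p = 0.072). Under normexp the IL-13 difference was 2.34 and that of both agents from IL-13 was -1.90, both still called (adjusted p = 0.00485 and 0.00616). Both calls were lost without the filter on dim probes. The call against IL-13 was also lost without the time term and with the fit limited to the arrays compared. Leaving out 1 array ended the IL-13 call in 5 of 8 refits and the call against IL-13 in 7 of 8, with the directions kept. An "at least" fold is the brighter group's mean over the dimmer group's, with each dim array set to the lowest signal well above background on it or to its own signal, whichever was higher.

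Edn1 encodes the precursor of endothelin-1, a vessel-constricting peptide. It was brightest with IL-13 alone. Scaled signals were 14.4 and 12.2 with IL-13 and ATRA, 40.8 and 48.4 with IL-13, 2.20 and 2.52 with ATRA, and 3.35 and 2.53 in control cells. It was well above background on both IL-13 arrays, on the 24 h array with both agents, and on 0 of the 5 others. It passed the filter through the IL-13 arrays only, so it had to differ there. With IL-13 it was at least 5.41-fold higher than in control cells (limma adjusted p = 0.00807). Under normexp that log2 difference was 0.65 and was not called (adjusted p = 0.0912). With IL-13 and ATRA the calls over control (adjusted p = 0.00757) and over ATRA (adjusted p = 0.0221) rest on 1 array well above background of 4 in each, and no fold is given. Under normexp those log2 differences were 0.28 (adjusted p = 0.326) and 0.37 (adjusted p = 0.499). It was lower with both agents than with IL-13 alone by -1.75 ± 0.20 on the log2 scale (adjusted p = 0.0251), where 1 of the 2 arrays with both agents was well above background, and by -0.36 under normexp (adjusted p = 0.292).

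The RefSeq promoters of these 2 genes are shown because both genes were highest with IL-13 alone and lower when ATRA was added. Each is the 250 bases upstream of the RefSeq start in GRCm38.p6, on the plus strand, at chr13:42301226-42301475 for Edn1 and chr8:54077282-54077531 for Vegfc. Capitals mark a 4-base-spacer STAT motif (TTC and GAA with 4 bases between, the kind STAT6 binds) in Edn1 and GC boxes (GGGCGG, read on either strand) in Vegfc.
Edn1 promoter: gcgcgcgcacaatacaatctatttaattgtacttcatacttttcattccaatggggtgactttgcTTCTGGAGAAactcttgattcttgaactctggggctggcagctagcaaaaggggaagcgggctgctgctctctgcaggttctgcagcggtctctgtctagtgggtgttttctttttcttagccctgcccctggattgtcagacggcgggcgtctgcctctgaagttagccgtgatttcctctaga
Vegfc promoter: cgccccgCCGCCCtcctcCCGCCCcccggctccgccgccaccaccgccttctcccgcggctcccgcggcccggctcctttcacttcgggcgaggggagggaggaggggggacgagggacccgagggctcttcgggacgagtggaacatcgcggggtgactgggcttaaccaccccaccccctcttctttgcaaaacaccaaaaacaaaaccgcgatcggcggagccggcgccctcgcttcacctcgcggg
The match in Edn1 lay 185 to 176 bases before the start. Of 32851 RefSeq mouse promoters of this length, 5.85% held that motif, as did 1 of the 9 promoters listed for 7 of the members. Vegfc held 0 matches to it and had 2 GC boxes. GC boxes were in 7 of the 9 promoters and in 32.7% of all promoters. A match is a description of the letters only.

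Hbegf, a membrane-anchored EGF receptor ligand that is shed by metalloproteases, was lowest in control cells. Scaled signals were 412 and 251 with IL-13 and ATRA, 199.7 and 169 with IL-13, 46.6 and 113 with ATRA, and 5.94 and 11.4 in control cells. The 4 treatments did not overlap, and the 12 h control array was not well above background, so the sizes against control rest on a value near background. The log2 differences from control were 5.29 ± 0.51 with both agents and 4.48 ± 0.51 with IL-13, with limma adjusted p of 0.00866 and 0.0325. Under normexp, run on the same filtered probes, they were 2.47 and 1.81, both still called (adjusted p = 0.0046 and 0.0401). Without the filter on dim probes neither was called, and Hbegf passed that filter only through the treatments other than control. With ATRA alone the difference was 3.14 ± 0.51, which missed the threshold (adjusted p = 0.0554). IL-13 with ATRA differed from IL-13 by 0.81 ± 0.51 (adjusted p = 0.444) and from ATRA by 2.15 ± 0.51 (adjusted p = 0.203). The gene lies on chromosome 18.

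Pdgfa, a ligand for PDGF receptors on mesenchymal cells, split by IL-13. Scaled signals were 7697 and 6022 with IL-13 and ATRA, 7031 and 6078 with IL-13, 3333 and 2944 with ATRA, and 3738 and 2716 in control cells. All 4 arrays with IL-13 lay above all 4 without it, and every treatment was lower at 24 h than at 12 h. The log2 differences from control were 1.10 ± 0.12 with both agents, 1.04 ± 0.12 with IL-13 and -0.02 ± 0.12 with ATRA. Their limma adjusted p were 0.0111, 0.0352 and 0.956. IL-13 with ATRA differed from ATRA by 1.12 ± 0.12 (adjusted p = 0.046) and from IL-13 by 0.06 ± 0.12 (adjusted p = 0.843). A second Pdgfa probe gave 1.07 for IL-13 against control (adjusted p = 0.0272). The call over ATRA was lost in all 8 refits that left out 1 array (adjusted p of 0.07 to 0.274), with quantile normalization (0.0732) and with the authors' deposited log2 values (0.0754). The IL-13 call was lost in 7 of those 8 refits (adjusted p up to 0.144) and with the deposited values (0.0506).

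Pdgfb, the second PDGF ligand, which recruits pericytes to vessels, passed no test. Scaled signals were 205 and 96.7 with IL-13 and ATRA, 240.0 and 170.2 with IL-13, 105 and 112 with ATRA, and 194 and 140.1 in control cells. The 2 ATRA arrays lay below the 2 control arrays at both times, and the arrays with both agents overlapped those of every other treatment. The differences from control were -0.23 ± 0.27 with both agents, 0.30 ± 0.27 with IL-13 and -0.60 ± 0.27 with ATRA, with limma adjusted p of 0.627, 0.516 and 0.399. A second Pdgfb probe gave -0.12, 0.33 and -0.54, none called.

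Igf1, the insulin-like growth factor that acts through Igf1r, was bright in every treatment and brightest with IL-13. Scaled signals were 61393 and 58946 with IL-13 and ATRA, 61624 and 65114 with IL-13, 11784.5 and 15279.7 with ATRA, and 11585.5 and 11002 in control cells. The 4 arrays with IL-13 lay far above the 4 without it. On the brightest probe, which gave these signals, IL-13 with ATRA lay just below IL-13 alone. On the other 3 probes these 2 treatments overlapped. IL-13 raised Igf1 by 2.49 ± 0.15 on the log2 scale over control (5.61-fold, limma adjusted p = 0.0134), and IL-13 with ATRA by 2.41 ± 0.15 (5.33-fold, adjusted p = 0.00362). IL-13 with ATRA exceeded ATRA by 2.16 ± 0.15 (adjusted p = 0.0187), and differed from IL-13 by -0.07 ± 0.15 (adjusted p = 0.836). ATRA alone differed from control by 0.25 ± 0.15 (adjusted p = 0.533). All 4 Igf1 probes were called for IL-13 against control, with log2 differences of 2.49, 2.95, 2.88 and 2.67, as the plot of the Vegfa and Igf1 probes shows. For IL-13 with ATRA against ATRA, 3 of the 4 were called, and A_52_P306327 was not (2.50, adjusted p = 0.0625).

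The promoters of Igf1 and Pdgfa are shown because both genes were higher on every array with IL-13, with or without ATRA. Both are 250 bases upstream of a RefSeq start in GRCm38.p6, at chr10:87860861-87861110 on the plus strand for Igf1 and at chr5:138994945-138995194 on the minus strand for Pdgfa. Both lie inside the span RefSeq gives the gene, chr10:87858265-87937047 for Igf1 and chr5:138976014-139000792 for Pdgfa. RefSeq's table holds a second Pdgfa promoter, at chr5:138994282-138994531, with 1 GC box and 1 GGTTCA half-site (either strand). The one farther upstream is shown. Capitals mark an AP-1-like motif (TGANTCA) and a nuclear receptor half-site (AGGTCA) in Igf1, and GC boxes in Pdgfa.
Igf1 promoter: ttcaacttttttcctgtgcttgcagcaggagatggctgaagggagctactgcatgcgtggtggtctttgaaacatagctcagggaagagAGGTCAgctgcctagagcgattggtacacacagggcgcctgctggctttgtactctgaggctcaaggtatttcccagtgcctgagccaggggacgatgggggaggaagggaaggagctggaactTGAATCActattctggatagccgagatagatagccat
Pdgfa promoter: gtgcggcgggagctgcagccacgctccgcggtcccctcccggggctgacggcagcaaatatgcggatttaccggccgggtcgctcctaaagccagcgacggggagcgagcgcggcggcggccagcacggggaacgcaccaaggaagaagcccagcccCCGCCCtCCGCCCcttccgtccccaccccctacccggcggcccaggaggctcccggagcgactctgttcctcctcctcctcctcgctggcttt
In Igf1 the AP-1-like motif lay 37 to 31 and the half-site 161 to 156 bases before the start. The AP-1-like motif was in 6.75% of all promoters and in 1 of the 9 listed for members. The half-site was in 14.0% of all promoters and in 2 of the 9. The STAT motif with a 3-base spacer (TTCNNNGAA) was in 0 of the 9 and in 7.02% of all promoters.

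Bmp2, a bone morphogenetic protein that acts through SMAD1 and SMAD5, was detected only on arrays with ATRA. Scaled signals were 43.9 and 66.5 with IL-13 and ATRA, 3.21 and 2.13 with IL-13, 54.6 and 124 with ATRA, and 2.71 and 2.60 in control cells. None of the 4 arrays without ATRA was well above background, and all 4 with ATRA were. Of the 10 Bmp2 spots, 1 was left out as non-uniform or outlying on the 24 h IL-13 array and 1 on the 12 h control array. Before scaling and with every spot, signals ran from 1.63 to 446 on the first and from 1.79 to 15.3 on the second. The low means of these 2 arrays depend on leaving those spots out. On the 24 h ATRA array 2 spots were left out (range 111 to 187). Because it passed the filter only through the treatments where it is high, it had to differ. With ATRA it was at least 9.99-fold higher than in control cells (limma adjusted p = 0.0161), and with both agents at least 6.58-fold higher (adjusted p = 0.00866). Under normexp those log2 differences were 1.31 and 1.05, and neither was called (adjusted p = 0.0796 and 0.0795). With both agents it was at least 6.16-fold higher than under IL-13 alone (adjusted p = 0.0174, and 0.124 under normexp), and differed from ATRA by -0.60 ± 0.42 on the log2 scale (adjusted p = 0.562). The array read Bmp2 with 1 probe on 10 spots, at mm9 chr2:133386981-133387040 on the plus strand per the file, shown because the calls rest on this probe alone.
Bmp2 probe: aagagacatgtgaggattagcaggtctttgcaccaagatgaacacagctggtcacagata

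Vegfa, the other gene that followed ATRA, had a promoter entry at chr17:46032378-46032627 on the minus strand. It held 2 GC boxes in capitals and 0 AGGTCA half-sites. A second Vegfa promoter in RefSeq's table, at chr17:46025164-46025413 inside the gene, held 1 GC box and 1 ACGTG hypoxia element core (either strand) and is not shown.
Vegfa promoter: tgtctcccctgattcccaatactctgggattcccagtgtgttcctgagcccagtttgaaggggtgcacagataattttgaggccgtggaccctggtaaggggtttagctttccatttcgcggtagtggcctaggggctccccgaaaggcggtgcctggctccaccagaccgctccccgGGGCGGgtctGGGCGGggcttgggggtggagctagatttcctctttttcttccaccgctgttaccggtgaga

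Tgfb1, the latent cytokine of matrix repair and immune regulation, passed no test. Scaled signals were 2195 and 1695 with IL-13 and ATRA, 2206 and 1004 with IL-13, 2182 and 2181 with ATRA, and 2347 and 1445 in control cells. At 12 h the treatments lay close together, and at 24 h ATRA was the highest and IL-13 the lowest. The differences from control were 0.07 ± 0.27 with both agents, -0.31 ± 0.27 with IL-13 and 0.24 ± 0.27 with ATRA, with limma adjusted p of 0.899, 0.502 and 0.764.

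**Figure D3:**
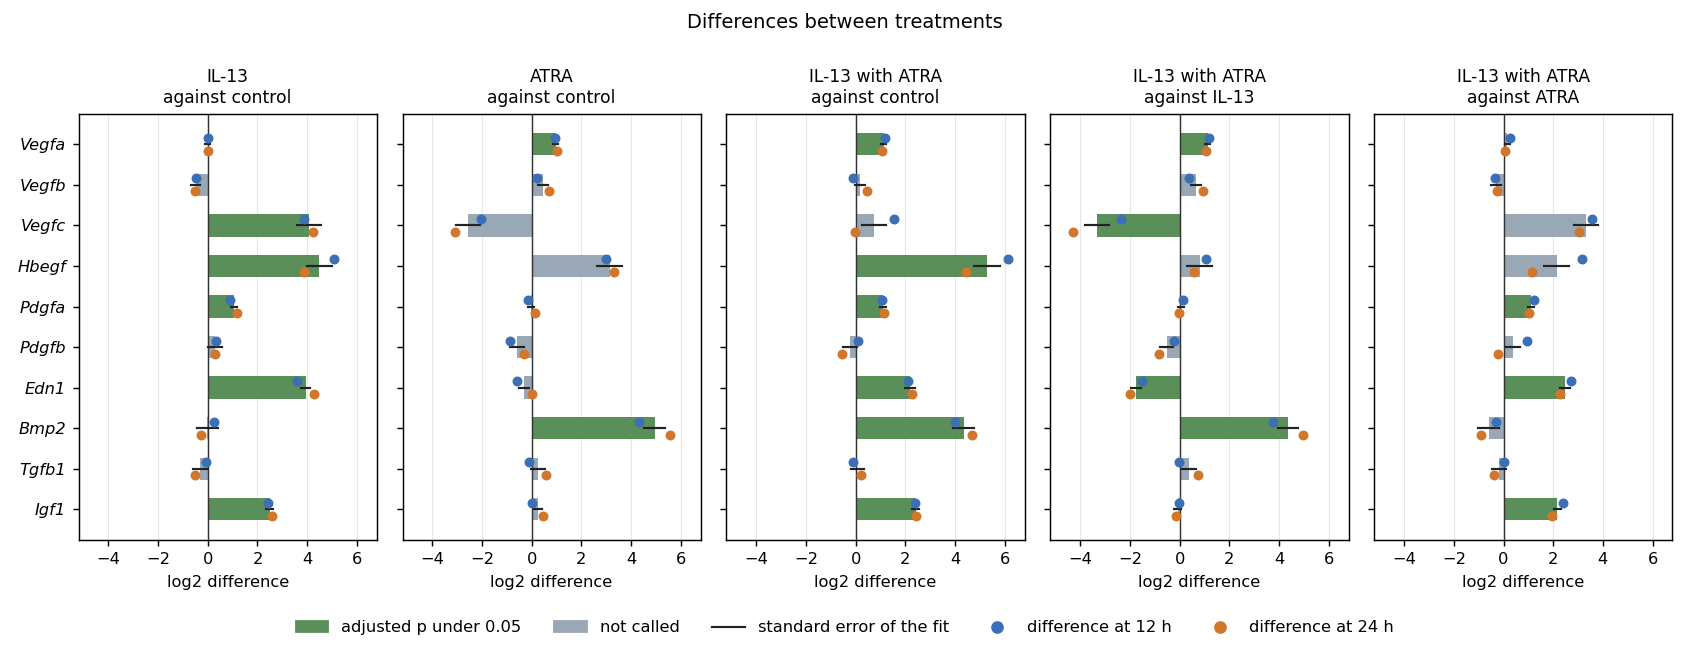
Log2 differences of the 10 growth factors in 5 treatment comparisons; bars are the fitted difference over 2 arrays each, black lines its standard error, blue points the 12 h difference and orange points the 24 h difference, and green bars were called at adjusted p under 0.05. Where a group was not well above background the bar shows the fitted value, not the bound given in the text.

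Set against IL-13 alone, IL-13 with ATRA raised 2 growth factors (Vegfa, Bmp2) and lowered 2 (Vegfc, Edn1), where 1.15% of all genes were called higher and 1.49% lower. Set against ATRA alone, IL-13 with ATRA raised 3 (Pdgfa, Edn1, Igf1) and lowered 0, where 0.266% were called higher and 0.104% lower. Edn1 and Bmp2 passed the filter only through treatments in which they are high, so their calls in these 2 comparisons support nothing either. The lower group had some signal well above background for 3 of the 4 calls against IL-13, Edn1 among them. Against ATRA that held for 2 of the 3. The median log2 difference of the 10 was 0.67 for IL-13, 0.25 for ATRA and 1.11 for both agents against control, beside medians of -0.01, -0.02 and -0.03 over all genes. The medians of the 10 include fitted values from arrays not well above background. The 3 comparisons with control share the control arrays, and the calls are read per comparison. The plot of log2 differences shows the 12 h and 24 h values on the same side of 0 for every called gene.

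The number of calls depended on single arrays and on the filter: without the filter on dim probes, only Igf1 with both agents against control was still called. With the fit limited to the arrays compared, 0 were called for both agents against IL-13 and 0 against ATRA. Of the 5 called for IL-13 against control, 1 was called without the 12 h control array, 0 without the 24 h control array, 3 without the 12 h and 3 without the 24 h ATRA array, and 2 without the 24 h IL-13 array. Edn1 lost its call only without the 24 h control array (adjusted p = 0.079), and Igf1 only without the 12 h (0.0858) or 24 h (0.104) control array. Of the 2 called for ATRA, 0 were called without either control array or the 24 h ATRA array, and 1 without the 12 h ATRA array or either array with both agents. Bmp2 lost its call without the 12 h (adjusted p = 0.0836) or 24 h (0.163) control array or the 24 h ATRA array (0.0558), and Vegfa in 6 of 8 refits (adjusted p up to 0.205).

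Of the 6 called for IL-13 with ATRA against control, 2 were called without the 12 h control array, 1 without the 24 h control array, and 3 without either array with both agents. Igf1 was called in all 8 refits that left out 1 array, with adjusted p of 0.00718 to 0.0443. Of the 4 called against IL-13, 1 was called without the 12 h or the 24 h control array, and 0 without the 24 h IL-13 array or either array with both agents. Of the 3 called against ATRA, 0 were called without either control array, the 12 h ATRA array or either array with both agents, and 1 without the 24 h ATRA array. The direction held in every one of these refits for each called growth factor.

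Whether the 2 agents together did other than the sum of their separate effects was tested by their interaction, and 0 of the 10 were called, beside 0.0194% of all genes. At an unadjusted p under 0.05 there were 2, against 3.69% of all genes. Those were Edn1, with an interaction of -1.44 ± 0.28 on the log2 scale (unadjusted p = 0.00267, adjusted p = 0.767, limma), and Hbegf, with -2.33 ± 0.72 (unadjusted p = 0.02, adjusted p = 1, limma). Edn1 was not well above background on the ATRA and control arrays, and Hbegf not on the 12 h control array, so both interactions rest on values at background. Under normexp they were -0.27 for Edn1 and -0.25 for Hbegf.

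Between 12 h and 24 h, 0 of the 10 growth factors and 0% of all genes were called by limma. Unadjusted p was under 0.05 for 3 of the 10 and for 12.1% of all genes. The 3 were Pdgfa, at -0.30 ± 0.09 on the log2 scale for 24 h against 12 h, Tgfb1 at -0.55 ± 0.19 and Pdgfb at -0.49 ± 0.19. Whether a treatment effect differed between the times was tested with 1 residual degree of freedom, and 0 were called, with unadjusted p under 0.05 for 2 of 10 IL-13 effects and 4 of 10 ATRA effects, against 9.8% and 9.35% of all genes. The ATRA effect on Bmp2 was larger at 24 h by 1.21 on the log2 scale (unadjusted p = 0.00221, adjusted p = 0.518), and that on Tgfb1 by 0.73 (unadjusted p = 0.0109, adjusted p = 0.518). The ATRA effect on Vegfc moved by -1.47 (unadjusted p = 0.0107, adjusted p = 0.518), and the IL-13 effect on Hbegf by -1.59 (unadjusted p = 0.00676, adjusted p = 0.476). Of these, Bmp2 was not well above background on any array without ATRA, Vegfc on either ATRA array, and Hbegf on the 12 h control array, so the 3 sizes rest on undetected values. Under normexp they were 0.79, -0.39 and -0.96.

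Of 26 receptor genes on the array 19 were tested, and with both agents against control 1 was called higher and 3 lower, where 3.01% and 5.54% of all genes were. With IL-13 against control 1 was higher and 0 were lower (0.693% and 0.622% of all genes), and with ATRA 0 were called (0.894% and 0.959%). The list's median log2 differences were -0.34, -0.07 and -0.08 for both agents, IL-13 and ATRA, beside -0.03, -0.01 and -0.02 over all genes. Flt1, the VEGF receptor 1 that binds Vegfa and Vegfb, had signals of 2546 and 2228 with IL-13 and ATRA, 1799 and 1527 with IL-13, 569 and 547 with ATRA, and 609 and 522 in control cells. All 4 arrays with IL-13 lay above all 4 without it. It rose by 1.55 ± 0.11 with IL-13 over control (limma adjusted p = 0.0168), by 2.08 ± 0.11 with both agents over control (adjusted p = 0.00287), and by 2.09 ± 0.11 with both agents over ATRA (adjusted p = 0.00979). Leaving out 1 array at a time kept the call of both agents over control in all 8 refits, and ended that of IL-13 over control without the 12 h (0.116) or 24 h (0.115) control array or the 24 h IL-13 array (0.052). The call over ATRA was lost in 5 of 8 refits (adjusted p up to 0.0779).

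The 3 receptors lower with both agents than in control cells were Nrp1, a VEGF co-receptor, at -1.52 ± 0.29, Pdgfrb, the PDGF receptor that binds Pdgfb, at -1.43 ± 0.23, and Eng, a TGF-beta co-receptor, at -0.66 ± 0.13. Their limma adjusted p were 0.0389, 0.0268 and 0.0424. All 3 signals were low, with 19.0 and 12.8 for Nrp1, 11.5 and 8.37 for Pdgfrb and 39.5 and 29.5 for Eng on the arrays with both agents, against 51.7 and 38.9, 29.5 and 23.7, and 71.0 and 41.1 in control cells. Pdgfrb was well above background on 1 of the 2 arrays with both agents. These calls were lost in 6, 6 and 8 of the 8 refits that left out 1 array, with adjusted p up to 0.212, 0.164 and 0.227. Under normexp the differences were -0.38, -0.14 and -0.19, and none was called (adjusted p = 0.129, 0.67 and 0.485). The calls of Nrp1 and Eng were lost with quantile normalization too (adjusted p = 0.0506 and 0.0852).

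Of 23 related ligands 6 were tested, and 0 rose in any treatment comparison, where 0.266% to 3.01% of all genes were called higher. With so few genes tested, 0 is near that share. Against control 1 was called lower with ATRA and 2 with both agents, where 0.959% and 5.54% of all genes were. Against IL-13, 1 was called lower with both agents (1.49% of all genes). Angpt2, the angiopoietin that destabilises vessels, had signals of 1275 and 1219 with IL-13 and ATRA, 3583 and 3545 with IL-13, 1818 and 1685 with ATRA, and 3750.0 and 4889.8 in control cells. All 4 arrays with ATRA lay below all 4 without it. The log2 difference from control was -1.78 ± 0.16 with both agents (limma adjusted p = 0.00738) and -1.29 ± 0.16 with ATRA (adjusted p = 0.032). For both agents against IL-13 alone it was -1.52 ± 0.16 (adjusted p = 0.0202). The ATRA call was lost in all 8 refits that left out 1 array, with adjusted p of 0.0522 to 0.205, and that against control with both agents only without the 24 h array with both agents (0.0589). The call against IL-13 was lost without the 24 h IL-13 array (0.0884) or either array with both agents (0.0772 and 0.146). Tgfb3 was lower with both agents than in control cells by -0.88 ± 0.13 (adjusted p = 0.023), near background, and lost that call in 4 refits (adjusted p up to 0.137) and in 6 of 8 other settings. Its difference was -0.12 under normexp (adjusted p = 0.786).

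Of 21 genes that process or release these factors 13 were tested, and 4 were called in at least 1 of the 5 treatment comparisons (Ltbp3, Adam17, Adam10 and Pcsk5). Of all genes tested, 9.52% were called in at least 1 of them. Ltbp3, which tethers latent TGF-beta to the matrix, had signals of 217 and 152 with IL-13 and ATRA, 17.2 and 10.7 with IL-13, 267 and 212 with ATRA, and 25.3 and 19.2 in control cells. It rose by 3.43 ± 0.13 with ATRA over control (limma adjusted p = 0.00405), by 3.04 ± 0.13 with both agents over control (adjusted p = 0.00176) and by 3.74 ± 0.13 with both agents over IL-13 (adjusted p = 0.00293). Leaving out 1 array ended 1 of these calls, that of ATRA without the 24 h control array (adjusted p = 0.0653). Under normexp the 3 differences were 1.84, 1.52 and 1.71, all called. Tgfb1 itself was not called in those comparisons.

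Adam17, the main shedding protease of Hbegf and other EGF receptor ligands, fell to 4372 and 3707 with both agents, against 6299 and 6616 in control cells (-0.68 ± 0.13, limma adjusted p = 0.0387). Adam10, a related sheddase, rose to 949 and 831 with both agents, against 526 and 412 in control cells (0.93 ± 0.16, adjusted p = 0.0318). Pcsk5, a proprotein convertase, had signals of 27.0 and 10.9 with IL-13 and was not well above background on the 6 other arrays. It passed the filter through the IL-13 arrays only, so it had to differ there, and its calls support nothing. It was at least 2.09-fold higher with IL-13 than in control cells (adjusted p = 0.0406), and at least 1.78-fold lower with IL-13 and ATRA than under IL-13 alone (adjusted p = 0.039). Without the filter on dim probes, a brighter Pcsk5 probe that had not passed it stood for the gene. On that probe the IL-13 difference was -0.0901 (adjusted p = 1) and that against IL-13 was 1.90 (adjusted p = 0.73). The IL-13 call was also lost under normexp (0.43, adjusted p = 0.347), quantile normalization (0.0526) and the authors' deposited values (0.055). The Adam17, Adam10 and Pcsk5 calls against control were lost in 8, 6 and 6 of the 8 refits (adjusted p up to 0.207, 0.172 and 0.23), and that of Pcsk5 against IL-13 in 6 (up to 0.193).

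**Figure D4:**
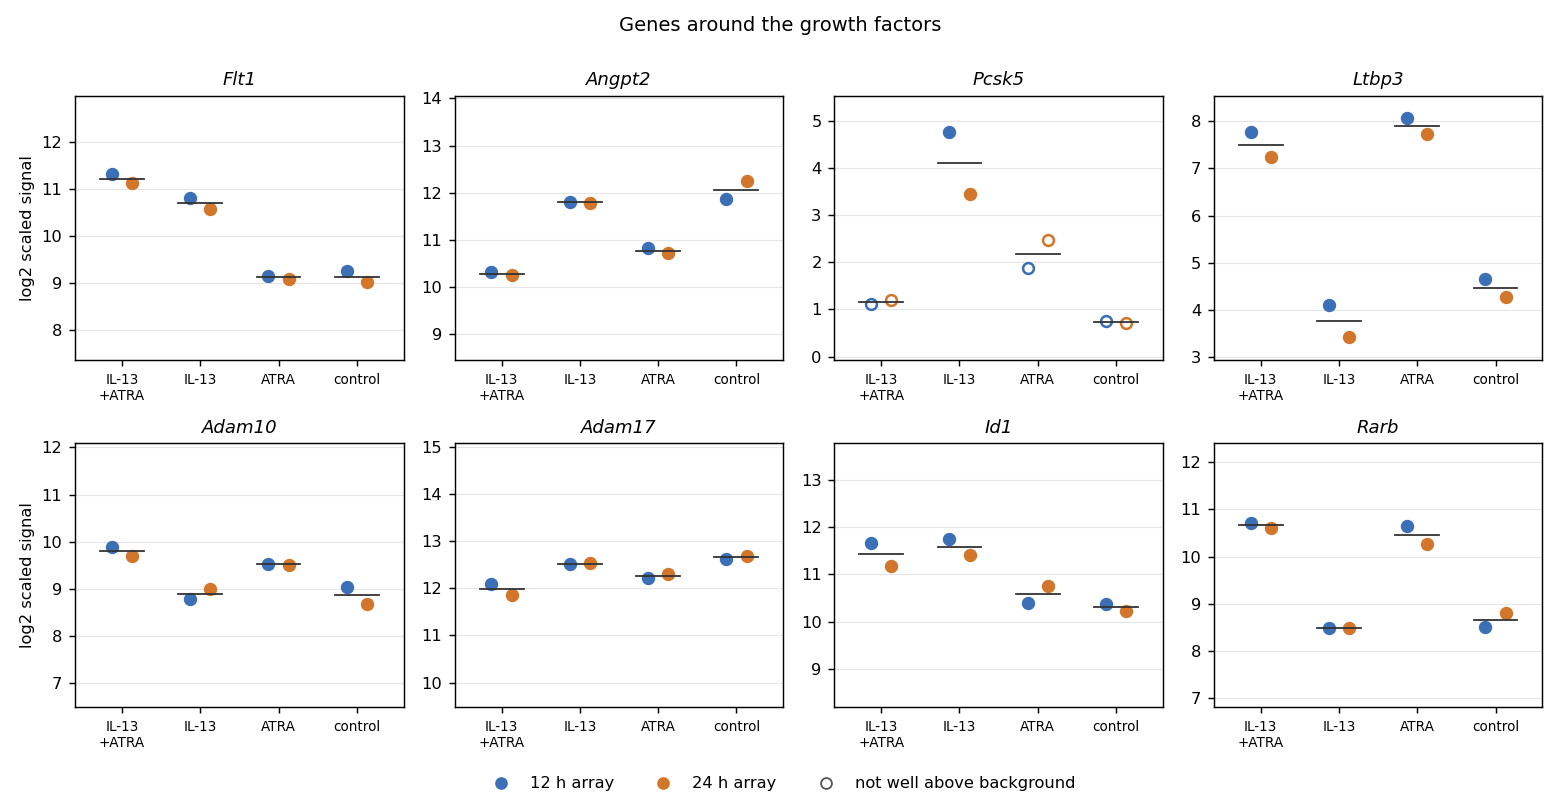
Scaled signal (log2) of 8 genes around the growth factors on the 8 arrays, by treatment, 12 h in blue and 24 h in orange; bars are means of 2 arrays, open points were not well above background, and every panel spans the same log2 width. Flt1 and Id1 sit higher on both treatments with IL-13, Ltbp3, Adam10 and Rarb higher and Angpt2 lower on both treatments with ATRA, and Pcsk5 is detected with IL-13 alone.

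Of 18 binding proteins and antagonists, such as the IGF binding proteins and the BMP antagonist noggin, 9 were tested. By limma 0 were called in any of the 5 treatment comparisons, beside 9.52% of all genes tested. All 21 upstream factors on the list were tested, and 2 were called, where 9.52% of all genes tested were called in at least 1 of the same 5 comparisons. Rarb, a retinoic acid receptor that is itself a known ATRA target, rose by 1.80 ± 0.18 with ATRA over control (limma adjusted p = 0.0238), by 2.02 ± 0.18 with both agents over control (adjusted p = 0.00752) and by 2.18 ± 0.18 with both agents over IL-13 (adjusted p = 0.0139). Atf3, a stress-induced transcription factor, rose by 1.69 ± 0.20 with IL-13 (adjusted p = 0.0352) and by 1.12 ± 0.20 with both agents (adjusted p = 0.0344) over control. The Rarb calls were lost in 6, 2 and 3 of 8 refits that left out 1 array (adjusted p up to 0.097, 0.0555 and 0.0916), and those of Atf3 in 6 and 4 (up to 0.204 and 0.18).

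Of 12 known targets of BMP and TGF-beta signalling 11 were tested, and 2 were called in at least 1 of the 5 treatment comparisons, beside 9.52% of all genes tested. Id1, the classic BMP target, had signals of 3239.5 and 2335 with IL-13 and ATRA, 3424 and 2732 with IL-13, 1355 and 1728 with ATRA, and 1334 and 1192 in control cells. It rose with both agents over control by 1.12 ± 0.21 (limma adjusted p = 0.0387). Id1 was not called with ATRA alone, nor with IL-13 alone, where its signals were higher than with both agents at both times. Id2 fell by a log2 difference of -0.68 ± 0.10 with ATRA against control (adjusted p = 0.0479) and of -0.75 ± 0.10 with both agents against IL-13 (adjusted p = 0.0346). Those calls were lost in 4, 8 and 8 of the 8 refits, with adjusted p up to 0.196, 0.297 and 0.237.

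The 2 named genes whose log2 signal was most like that of a growth factor over the 8 arrays, out of 12708 named genes tested, are given as a description, because the arrays share treatments. For Igf1 they were Cish (Pearson r = 0.997) and Gstt4 (0.993). For Pdgfa they were Rai14 (0.970) and Socs1 (0.970). For Vegfc they were Map3k12 (0.993) and Il1b (0.991), and for Edn1 Il6st (0.989) and Mrc1 (0.989). Mrc1 encodes the mannose receptor, a marker of M2 macrophages. For Bmp2 they were Klhl12 (0.993) and Rac2 (0.992), for Vegfa Rab20 (0.996) and Tmem273 (0.992), and for Hbegf Ccl2 (0.991) and Ebna1bp2 (0.984). Edn1 was well above background on 3 of the 8 arrays and Bmp2 on 4, so their r rest in part on undetected values. The 3 growth factors that passed no test also had genes with a high r: 0.996 for Vegfb with Agfg2, 0.985 for Pdgfb with Igsf3 and 0.986 for Tgfb1 with Plxnd1. Each r is among the highest of 12708 values, so a high r here does not set a growth factor apart. Genes with r over 0.95 numbered from 3 for Pdgfb to 84 for Bmp2.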

How the data were processed

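Total RNA of RAW264.7 cells was read on 8 arrays, design 014868, with Agilent Feature Extraction 10.7.1.1, per the file headers. The deposited files give a processed signal per spot in the unit intensity. Per the file headers the authors' software subtracted background with spatial detrending, applied multiplicative detrending, gave surrogate values to spots not above background, and placed probes on build mm9. A second deposited table holds the authors' log2 values, without a stated normalization in the sources used here, and served as an alternative only; its columns ranked probes as the matching arrays did (lowest Spearman rho 0.999996).

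Each array's processed signals were divided by their 75th percentile over non-control spots and brought back to a common level, spots of a probe were averaged, and log2 was taken. Non-uniform and outlying spots were left out, and probes then missing a value were dropped. A probe was kept if, for at least 1 treatment, the 12 h and the 24 h array were well above background (24016 probes), and the brightest on average stood for each of 15439 genes. Of 41174 probes, 27668 were named by accession, 5589 by symbol and 471 by synonym through RefSeq (GRCm38.p6), and 7446 kept the file's name. limma 3.58.1 in R 4.3.3 fitted treatment and time over the 8 arrays (3 residual degrees of freedom), two-sided, with Benjamini-Hochberg adjustment over all genes. The time term is the replicate block: the labels give hours and no replicate number, so the pairing comes from time and slide. The procedure was tested on simulated data. The number of arrays limits the precision.

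Named genes were all 10 growth factors with all their probes, genes of 6 lists called in at least 1 of 5 treatment comparisons (at most 5 per list and comparison), and the 2 named genes with the highest r to each growth factor. Growth factors and lists were chosen with earlier results of these data known. Alternatives changed the normalization, the source of values, the background correction (normexp, offset 50), the dim-probe filter, the time term, the arrays in the fit, the empirical Bayes settings, the probe rule and the arrays kept. Promoters are RefSeq's.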

Additional observations from a re-analysis of the deposited data

How the results depend on the processing

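Counts of called growth factors are given here in a fixed order: against control for IL-13, for ATRA and for both agents, then both agents against IL-13 and against ATRA, with 5, 2, 6, 4 and 3 as reported. Without the time term (no replicate block) they were 4, 3, 6, 3 and 2. Without a filter on dim probes they were 0, 0, 1, 0 and 0, and with probes well above background on all 8 arrays 2, 1, 3, 1 and 2, since Edn1, Bmp2, Vegfc and Hbegf were then not tested. With the fit limited to the arrays compared they were 2, 4, 6, 0 and 0. With normexp they were 4, 1, 4, 2 and 2, and with trend and robust settings 5, 4, 6, 4 and 4. Leaving out 1 array at a time gave 0 to 4, 0 to 2, 1 to 6, 0 to 4 and 0 to 2. Apart from the construction of the filter, the cause was not tested.

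For all genes the counts were 203, 286, 1320, 408 and 57 as reported, 1, 0, 36, 7 and 4 without a filter, 22, 356, 851, 8 and 2 with only the arrays compared, and 627, 636, 2032, 813 and 175 with trend and robust settings. No growth factor that was called changed direction under any alternative run. Without the filter, a brighter Pcsk5 probe that had not passed it stood for the gene. That probe gave -0.0901 for IL-13 against control and 1.90 for IL-13 with ATRA against IL-13 (log2), so the values are of different probes. Igf1 in IL-13 with ATRA against control kept its call in all 9 other settings and all 8 left-out arrays (adjusted p 0.000119 to 0.048, limma). Alternatives for the time results were chosen after seeing the data. For 24 h against 12 h, and for the interaction, 0 growth factors were called in every setting run. For treatment effects by time, normexp called 3: the IL-13 effect on Hbegf and the ATRA effects on Bmp2 and Tgfb1. Over all genes that setting called 193 for the IL-13 effect and 275 for the ATRA effect, where the reported fit called 0 for each. Low signals of Edn1, Bmp2, Vegfc and Hbegf near background limit the sizes that can be given.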
